A study of Mus musculus with 6 samples.

Results

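Glycosyltransferases that build mucin-type O-glycans and the terminal ends of glycans were followed across 3 groups of mouse small-intestinal organoids. The members were all genes whose symbol belongs to the Galnt, Fut, B3gnt, B3galt, B4galt, B4galnt, St3gal, St6gal and St6galnac, St8sia and Gcnt series, together with C1galt1 and its partner C1galt1c1. The rule used names only, and it found 80 of the 55416 gene identifiers in the tables. These 80 identifiers carried 79 symbols, since St6galnac2 had 2 identifiers that overlap on one strand, and 79 of the 80 identifiers were protein coding, the other being the antisense RNA Galnt6os.

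Organoids, which are epithelial cultures grown in a gel, came from mice aged 4 to 8 weeks. Every group, control included, was homozygous for both transgenes, written Tg/Tg for Rosa26-rtTA and likewise Tg/Tg for Col1A1-TetO-OSKM. In these mice a doxycycline-dependent activator at the broadly active Rosa26 locus drives a cassette of the reprogramming factors Oct4, Sox2, Klf4 and Myc at Col1a1. Control organoids were compared with organoids kept for 3 days in doxycycline at 0.1 µg/ml or at 0.5 µg/ml, and each of the 3 groups held 2 libraries. No group lacking the cassette received doxycycline, so effects of the drug and of the factors cannot be told apart. Nothing in the sources tells if the 2 libraries of a group came from separate mice or cultures, so the p-values measure only the spread between these libraries, which may be technical.

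A mucin-type O-glycan begins in the Golgi when a polypeptide GalNAc-transferase links N-acetylgalactosamine (GalNAc) to a serine or threonine. Galactose or N-acetylglucosamine (GlcNAc) is then added to form a core, the core may be branched or extended, and fucose, sialic acid or a further GalNAc finally caps the chain. The same capping families also act on N-glycans and glycolipids, and in the intestine the capped chains form much of the mucus gel and the cell-surface glycocalyx.

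The deposited tables gave RSEM expected counts and TPM, a transcript level scaled for transcript length, so that levels are compared between genes in TPM only. The libraries held 45289760 to 72547738 counts each. Markers of other cell types were summed in each library: fibroblast markers came to 0.816 to 2.59 counts per 1e+06 (CPM), immune markers to 1.29 to 2.57 CPM with Adgre1 at 0, and endothelial markers to 0.466 to 1.23 CPM with Cdh5 and Emcn at 0. Within these sums single genes went opposite ways at 0.5 µg/ml: the fibroblast gene Dcn went from 0 in both control libraries to 1.49 and 2.07 CPM and the leukocyte gene Ptprc from 0 to 0.298 and 0.269 CPM, while Pdgfrb and Itgam were lower (log2 fold changes -2.24 and -1.34, edgeR adjusted p = 0.000136 and 0.000163). All 4 factor genes rose at both doses, Pou5f1 from a mean of 0.191 CPM to means of 139 and 499 CPM (edgeR adjusted p = 3.89e-11 and 3.16e-12). Summed markers of epithelial cell types differed between the groups. In the order control, 0.1 and 0.5 µg/ml, the range of the 9 goblet markers was 3152 to 3442, 2384 to 2723 and 755 to 762 CPM, mostly Fcgbp (2366 and 2603 CPM in control), while Clca1 was higher at both doses (0.66 and 0.93, log2) and Zg16 at 0.1 µg/ml (1.57). That of the 6 Paneth markers was 1193 to 1348, 367 to 488 and 143 to 151 CPM. The range of the 6 enteroendocrine markers was 285 to 363, 99.6 to 114 and 24.1 to 28.2 CPM, and that of the 8 enterocyte markers was 1563 to 1932, 2334 to 3108 and 1112 to 1141 CPM. At 0.1 µg/ml 4 enterocyte markers were higher, 1 was lower and 3 did not pass at edgeR adjusted p under 0.05. At 0.5 µg/ml 5 of them were lower and 3 did not pass. Of the 6 general epithelial markers, Krt8, Vil1 and Cdh1 were higher at 0.5 µg/ml (1.44, 0.70 and 0.22, log2) and Epcam, Krt18 and Cdx2 lower (-0.42, -0.87 and -1.60). The 6 tuft markers summed to 3.46 to 4.79, 147 to 148 and 411 to 419 CPM, nearly all of it Avil. Of the 4 tuft markers tested, 3 were higher and 1 lower at each dose against control. The tuft channel gene Trpm5 fell at 0.5 µg/ml by 2.48 on the log2 scale (adjusted p = 0.000169), and Gfi1b and Il25 stayed under 1 CPM. The 5 gastric surface markers summed to 0.243 to 0.299, 41.4 to 46.6 and 142 to 162 CPM. The part of these markers in the glycosyltransferase results was not tested, and in bulk RNA fewer cells of a type and less RNA per cell cannot be told apart.

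Of the 80 members, 61 passed the filter on low counts and were tested. Against control, 23 were higher and 24 lower at 0.5 µg/ml, and 14 did not pass the test (edgeR's quasi-likelihood F test with p adjusted by Benjamini and Hochberg over all 16975 genes tested, threshold 0.05). That made 77.0% of the tested members, beside 67.5% of all genes tested, of which 34.4% were higher and 33.1% lower. Of the tested members, 3 (Fut9, Galnt18 and St6galnac3) were above the filter's limit in 1 group only, so that they had to differ, and without them 21 were higher and 23 lower of 58. St6galnac6 and St8sia1, which were above the limit in no control library, stay among the 21. St8sia3, above it in no 0.5 µg/ml library, stays among the 23. The median log2 fold change of all tested members was 0.04, against a median of -0.0 over all genes. At least a 2-fold difference was present for 13 higher and 15 lower members, and 27.1% of all genes tested passed that limit. The 13 include Fut9 and St6galnac3, and the 15 include Galnt18. Most families held members that moved in each direction, as the plot of log2 fold changes by role shows.

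At 0.1 µg/ml, 15 members were higher and 16 lower than control, and 30 did not pass, so that 50.8% of the tested members were called beside 34.6% of all genes, with 20.8% of all genes higher and 13.8% lower. The median was 0.08 for the members and 0.02 for all genes, and 7 members were higher and 4 lower by at least 2-fold, beside 9.65% of all genes. Fut9, which passed the filter only through the 0.5 µg/ml libraries, is among the 15 higher and the 7. Without replicate 1 of the 0.1 µg/ml group, which was the deepest library, the number of lower members was 10, and that of all genes was 1448 of 17658 tested. Between the doses, 22 members were higher and 25 lower at 0.5 than at 0.1 µg/ml (77.0%, beside 58.9% of all genes, of which 29.8% were higher and 29.1% lower). By at least 2-fold, 13 were higher and 8 lower, beside 19.3% of all genes. Fut9, St6galnac3 and Fut10 are among the 22 higher and among these 13. Fut10 was above the filter's limit in 1 control library, in no 0.1 µg/ml library and in 2 libraries with 0.5 µg/ml, and needed the latter to pass. The CPM values of the 2 groups did not overlap for 56 of the 61 tested members at 0.5 µg/ml against control, beside 84.1% of all genes, for 48 at 0.1 µg/ml against control, beside 67.8%, and for 56 between the doses, beside 80.7%. The 61 include Fut9, Galnt18, St6galnac3 and Fut10.

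**Figure D1:**
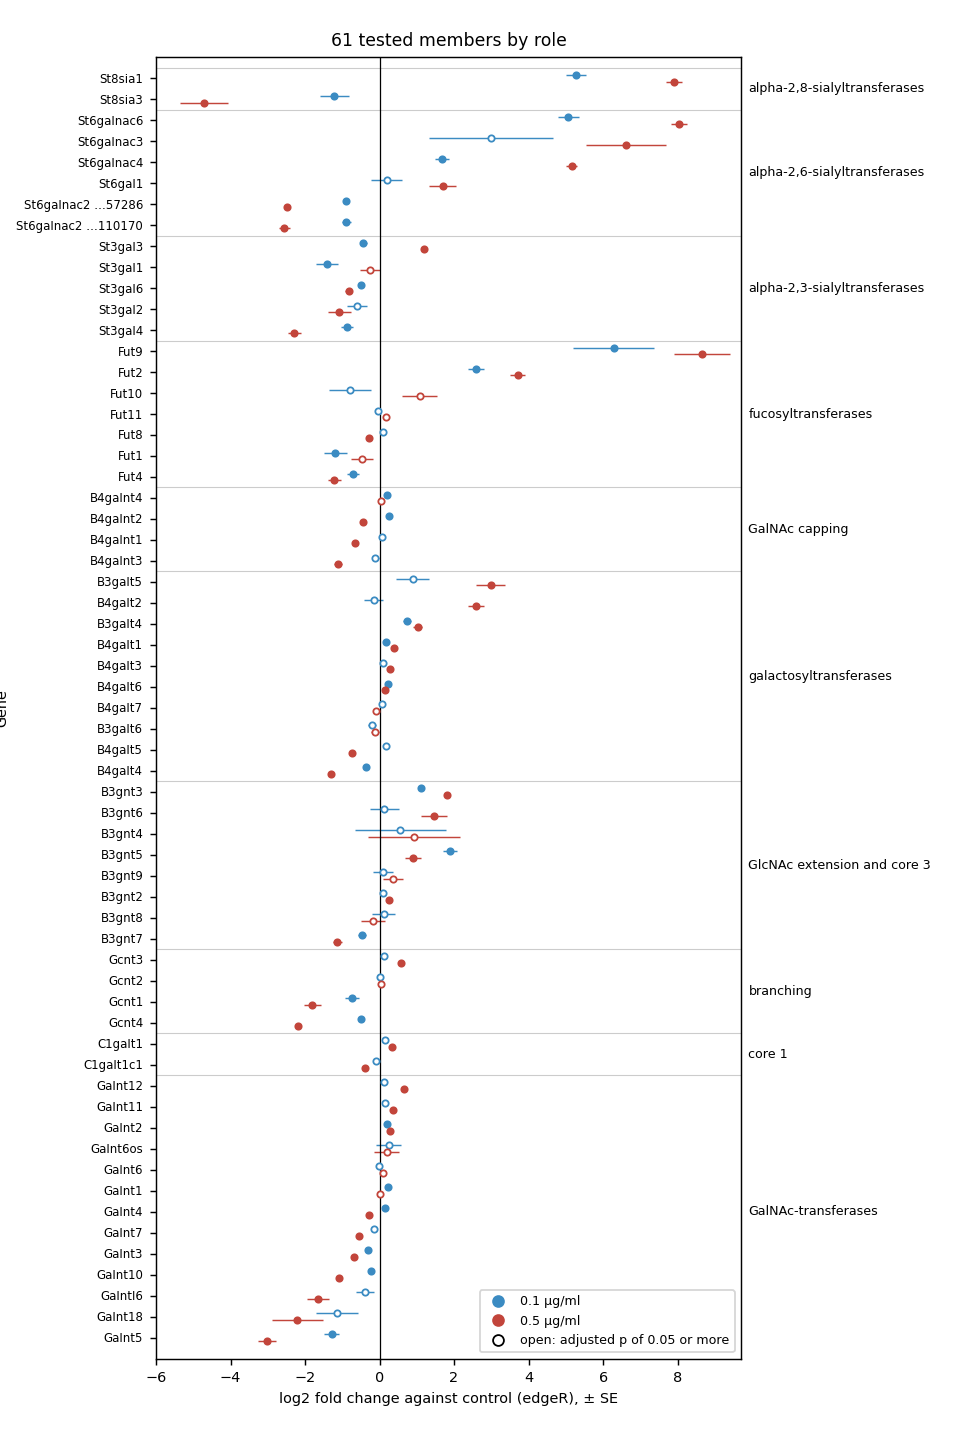
The horizontal axis gives the edgeR log2 fold change against control with its standard error for the 61 tested members, grouped by role, at 0.1 µg/ml (blue) and 0.5 µg/ml (red), and open points did not pass the adjusted test. The alpha-2,6 and alpha-2,8 families span the widest range, from -4.72 for St8sia3 to 8.04 for St6galnac6, and the fitted values of Fut9 and St6galnac3 are no measure of size because both control libraries were at 0.

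The remaining 19 members had too few reads to test, and the highest count any of them reached in a library was 15. Galnt14, Galnt17, Galntl5, St6gal2, St6galnac1 and St8sia5 had 0 counts in all 6 libraries, a level under 0.0414 to 0.0687 CPM, which is what 3 counts are worth in these libraries. St6galnac1, which makes the sialyl-Tn cap, was therefore not detected at this depth in any group. A further 12 members had 1 to 20 counts over all libraries, among them the GM3 synthase St3gal5 with 17 counts and the polysialic acid synthases St8sia2 and St8sia4. Gcnt7 had 56 counts, spread over all 6 libraries. Of the tested members, 12 stayed under 1 CPM in every group.

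The first step, the linking of GalNAc to protein, was represented by 20 identifiers, of which 13 were tested. Of the 13 GalNAc-transferase identifiers, 3 were higher, 7 lower and 3 did not pass at 0.5 µg/ml against control. That was 76.9% called, beside 67.5% of all genes tested. The 7 lower include Galnt18, which passed the low-count filter only through the control libraries. At 0.1 µg/ml, beside 34.6% of all genes, 46.2% of the identifiers were called, 3 higher and 3 lower. Their summed level was 240 and 256 TPM in the control libraries, 238 and 248 TPM at 0.1 µg/ml and 212 and 214 TPM at 0.5 µg/ml, so that the 0.5 µg/ml libraries lay lowest and the other groups overlapped.

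Galnt6 was the most abundant member of the family in each group. Its TPM was 58.97 and 63.84 in control, 58.33 and 60.34 with 0.1 µg/ml and 59.96 and 62.24 with 0.5 µg/ml. The 3 groups overlapped in TPM, and the difference at 0.5 µg/ml against control was 0.09 ± 0.04 (log2, SE; adjusted p = 0.0695) and at 0.1 µg/ml -0.01 ± 0.04 (adjusted p = 0.839). A log2 difference of 0.11 between the doses passed by a narrow margin (adjusted p = 0.0487) and did not pass without control replicate 2 or without any 1 library of either dose group (adjusted p from 0.0537 to 0.175).

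Galnt7 and Galnt10, which prefer peptides that already carry GalNAc, both fell at 0.5 µg/ml. Galnt7 went from 43.85 and 48.08 TPM in control to 38.43 and 42.06 with 0.1 µg/ml and 30.27 and 28.05 with 0.5 µg/ml, a log2 fold change of -0.56 ± 0.06 at 0.5 µg/ml (adjusted p = 2.6e-05), while -0.15 at 0.1 µg/ml did not pass (adjusted p = 0.0927). Galnt10 went from 11.21 and 10.79 to 8.83 and 9.56 and then 5.05 and 4.74 TPM, and was lower at both doses (-0.24 ± 0.07, adjusted p = 0.018, and -1.10 ± 0.07, adjusted p = 4.16e-07). Both genes were lowest in the 0.5 µg/ml libraries, with no overlap with control. Galnt3, known for the glycosylation of Fgf23, was also lower at both doses, by -0.32 and -0.68 on the log2 scale (adjusted p = 0.000505 and 7.22e-07).

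Galnt5, Galntl6 and Galnt18 were low in every group. Galnt5 had 0.73 and 0.76 TPM in control, 0.26 and 0.35 with 0.1 µg/ml and 0.08 in each library with 0.5 µg/ml. It fell by 1.29 on the log2 scale at 0.1 µg/ml (SE 0.20, adjusted p = 0.000777) and by 3.03 at 0.5 µg/ml (SE 0.24, adjusted p = 2.41e-06), with the groups in 3 separate steps. Galntl6 had 0.58 and 0.61, 0.42 and 0.33, and 0.19 and 0.11 TPM, and its log2 fold change at 0.5 µg/ml was -1.66 ± 0.29 (adjusted p = 0.000649). Its difference between the doses, -1.27, did not pass without replicate 2 of the 0.5 µg/ml group (-0.92, adjusted p = 0.0558). Galnt18 had 0.1 TPM in each control library, 0.06 and 0.02 with 0.1 µg/ml and 0.01 and 0.03 with 0.5 µg/ml, and each control value came from 10 counts. It passed the low-count filter only through the control libraries, so these values are given with no test.

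Galnt12, a transferase of the gut epithelium, and Galnt11, which acts on Notch in frog embryos and on the renal receptor megalin, were higher. Galnt12 had 7.13 and 7.87 TPM in control, 7.52 and 8.44 with 0.1 µg/ml and 10.82 and 11.3 with 0.5 µg/ml, a rise of 0.66 ± 0.07 at 0.5 µg/ml (adjusted p = 2.89e-05). Galnt11 had 13.46 and 14.07, 14.71 and 14.62, and 15.63 and 17.01 TPM, a rise of 0.35 ± 0.05 (adjusted p = 0.000142). In both cases the libraries at 0.5 µg/ml lay above those of control and 0.1 µg/ml. The third gene that rose, Galnt2, had a log2 fold change of 0.28 ± 0.05 at 0.5 µg/ml (adjusted p = 0.000627) and 0.19 ± 0.05 at 0.1 µg/ml (adjusted p = 0.0155).

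Galnt1 and Galnt4 followed another order over the doses. Galnt1 was higher at 0.1 µg/ml (0.23 ± 0.05, adjusted p = 0.00425) and 0.00 ± 0.05 from control at 0.5 µg/ml (adjusted p = 0.939). Galnt4 had 29.21 and 30.03 TPM in control, 31.18 and 32.71 with 0.1 µg/ml and 22.53 and 22.6 with 0.5 µg/ml. It was higher than control at 0.1 µg/ml (0.14 ± 0.04, adjusted p = 0.0232) and lower at 0.5 µg/ml (-0.29 ± 0.04, adjusted p = 0.00016). Galnt4 overlaps Poc1b on the same strand, whose log2 fold change at 0.5 µg/ml was -0.38, so its counts are uncertain. The antisense RNA Galnt6os, at 0.66 to 0.99 TPM, passed in no comparison.

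**Figure D2:**
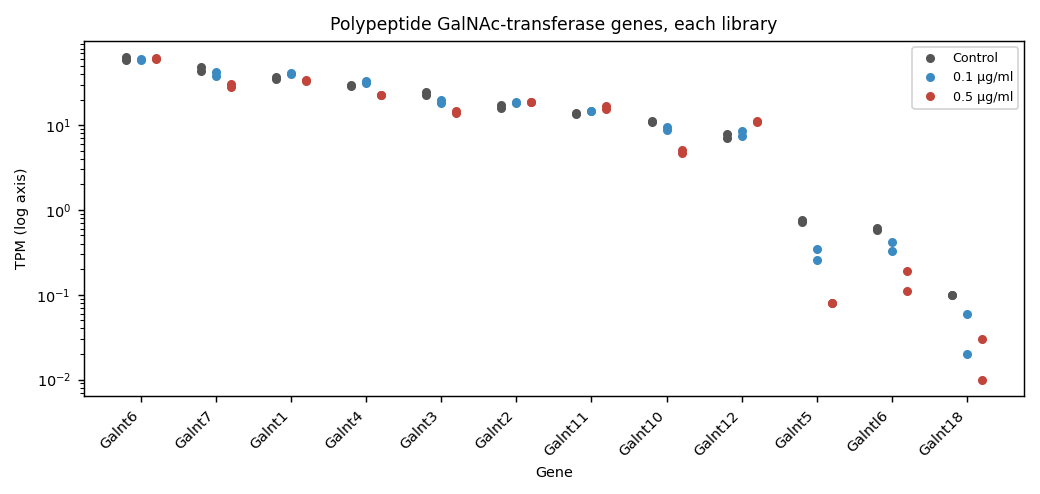
The logarithmic vertical axis gives the deposited TPM of the 12 tested protein-coding GalNAc-transferase genes in each library, coloured by group. Galnt6 stays between 58.33 and 63.84 TPM in all 6 libraries, while Galnt5 steps down from 0.73 and 0.76 TPM in control to 0.08 TPM at 0.5 µg/ml.

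Core 1 is made by C1galt1, which adds galactose to the first GalNAc and needs the chaperone C1galt1c1 (Cosmc) to fold. The 2 genes moved in opposite directions at 0.5 µg/ml. C1galt1 had 17.89 and 19.14 TPM in control, 19.5 and 20.63 with 0.1 µg/ml and 22.37 and 21.1 with 0.5 µg/ml, and was higher by 0.33 ± 0.05 (adjusted p = 0.000335). C1galt1c1 had 27.09 and 27.59, 24.59 and 25.13, and 18.3 and 20.35 TPM, and was lower with a log2 fold change of -0.40 ± 0.06 (adjusted p = 0.000132). The chaperone gene lay above the enzyme gene in every control and 0.1 µg/ml library, and the enzyme gene lay above it at 0.5 µg/ml. Neither gene passed at 0.1 µg/ml against control (adjusted p = 0.0523 and 0.189). The difference of C1galt1 between the doses, 0.18, did not pass with upper quartile scaling (adjusted p = 0.0523), without replicate 1 of the 0.1 µg/ml group (adjusted p = 0.0749) or without replicate 1 of the 0.5 µg/ml group (adjusted p = 0.142).

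The cores are branched by GlcNAc-transferases of the Gcnt family, of which 2 of 4 tested genes were lower and 1 higher at 0.5 µg/ml. Beside 67.5% of all genes, this was 75.0% of the tested Gcnt genes. Gcnt4, a core 2 enzyme, was the most abundant of them in control. It had 16.98 and 18.53 TPM in control, 12.57 and 11.97 with 0.1 µg/ml and 3.49 and 3.76 with 0.5 µg/ml. The groups formed 3 separate steps, with log2 fold changes against control of -0.49 ± 0.05 at 0.1 µg/ml (adjusted p = 6.94e-05) and -2.19 ± 0.06 at 0.5 µg/ml (adjusted p = 9.51e-10). By mean TPM it passed from first of the family in control to the third place at 0.5 µg/ml, after Gcnt3 and Gcnt2. An antisense gene, Gm48597, overlaps Gcnt4 and was lower too (-2.0 at 0.5 µg/ml), and the sources used here do not give the strand setting used in counting, so it is uncertain how reads were divided between both.

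Gcnt3, the mucin-type enzyme that makes core 2 and core 4, rose. It had 9.3 and 9.2 TPM in control, 9.88 and 9.52 with 0.1 µg/ml and 12.93 and 12.68 with 0.5 µg/ml (log2 fold change 0.57 ± 0.05, adjusted p = 6.95e-06, and 0.11 at 0.1 µg/ml, adjusted p = 0.151). Gcnt1, the core 2 enzyme of leukocytes, had 0.49 and 0.48, 0.33 in each, and 0.2 and 0.13 TPM, and fell by 1.81 on the log2 scale at 0.5 µg/ml (SE 0.23, adjusted p = 6.47e-05). Its lower level at 0.1 µg/ml (-0.74, adjusted p = 0.0182) did not pass without control replicate 1 or without either 0.1 µg/ml library (adjusted p from 0.0516 to 0.0758), or with DESeq2 (adjusted p = 0.0827). Gcnt2, which branches blood group I chains, stayed between 6.5 and 7.37 TPM in all libraries and passed in none of the 3 comparisons. Summed over the family, control held 33.4 and 35.7 TPM, 0.1 µg/ml 30.1 and 28.4 TPM and 0.5 µg/ml 23.3 TPM in each library.

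The promoter window of 1 of the 2 RefSeq starts of Gcnt4 is shown, as that of the branching gene that fell most. The 250 bases before the RefSeq start (chr13:96924094-96924343, plus strand, GRCm38.p6, from RefSeq) are printed 5′ to 3′, with capitals for motifs named after the 4 factors, searched on both strands: CACCC (Klf), CACGTG (Myc E-box), ATGCAAAT (Oct octamer) and CATTGT (Sox). This window held 2 CACCC motifs and 1 CATTGT.
Gcnt4: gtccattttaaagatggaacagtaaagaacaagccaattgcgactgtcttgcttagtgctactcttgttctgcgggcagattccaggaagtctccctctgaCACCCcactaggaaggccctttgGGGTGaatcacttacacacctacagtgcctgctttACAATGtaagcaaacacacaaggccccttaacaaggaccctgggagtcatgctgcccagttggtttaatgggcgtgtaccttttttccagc
A CACCC motif was present in 52.0% of 32851 promoter windows of this length and in 66.7% of the 78 windows of members, which were found for 58 of the 79 symbols. The E-box was in 6.0% and 6.4%, the octamer in 1.6% and 2.6%, and CATTGT in 10.7% and 3.8%. A match describes the letters of the window, not a site. The window of the second RefSeq start of Gcnt4 (chr13:96924463-96924712, plus strand, GRCm38.p6) is not shown, and it held none of the 4 motifs.

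Extension and core 3 synthesis depend on the B3gnt family, which adds GlcNAc to galactose or, for core 3, to GalNAc. All 8 were tested, and at 0.5 µg/ml 4 were higher and 1 lower, against 2 higher and 1 lower at 0.1 µg/ml. Beside 67.5% and 34.6% of all genes, 62.5% and 37.5% of the family were called. The summed level was 30.2 and 30.0 TPM in control, 38.5 and 38.0 with 0.1 µg/ml and 44.6 and 46.4 with 0.5 µg/ml, in 3 separate steps. B3gnt3, the enzyme that extends core 1, had 7.4 and 8.28 TPM in control, 16.74 and 16.05 with 0.1 µg/ml and 25.67 and 25.62 with 0.5 µg/ml. It was higher at both doses, by 1.10 ± 0.06 (adjusted p = 6.56e-07) and 1.81 ± 0.06 (adjusted p = 3.47e-09), and between them by 0.71 ± 0.05 (adjusted p = 2.92e-06).

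B3gnt3 passed B3gnt2, the main synthase of poly-N-acetyllactosamine, in level. B3gnt2 had 14.08 and 12.04 TPM in control, 14.42 and 13.63 with 0.1 µg/ml and 13.33 and 15.87 with 0.5 µg/ml, with overlapping groups in TPM and a log2 fold change of 0.26 ± 0.07 at 0.5 µg/ml (adjusted p = 0.00732). It overlaps the protein-coding Gm28048 on the same strand (0.31 at 0.5 µg/ml, adjusted p = 0.0245), which makes its counts uncertain. The 250 bases before the RefSeq start of B3gnt3 (chr8:71701801-71702050, minus strand, GRCm38.p6) held 3 CACCC motifs and none of the other 3.
B3gnt3: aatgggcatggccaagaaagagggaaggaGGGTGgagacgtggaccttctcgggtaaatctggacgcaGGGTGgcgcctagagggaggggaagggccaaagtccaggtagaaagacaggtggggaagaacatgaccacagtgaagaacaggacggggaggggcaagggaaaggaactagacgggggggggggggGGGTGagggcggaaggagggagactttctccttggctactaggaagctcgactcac
They are shown because B3gnt3 had the largest rise of its family at 0.5 µg/ml against control among genes of at least 1 CPM.

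B3gnt5, which makes the base of the lacto-series glycolipids, peaked at the lower dose. Its TPM was 0.68 and 0.54 in control, 1.32 and 1.66 with 0.1 µg/ml and 0.81 and 0.69 with 0.5 µg/ml. By counts it was higher at 0.1 µg/ml (1.88 ± 0.19, adjusted p = 6.77e-05) and at 0.5 µg/ml (0.90 ± 0.21, adjusted p = 0.00353), and lower at 0.5 than at 0.1 µg/ml (-0.98 ± 0.18, adjusted p = 0.00115). By TPM the ratio at 0.5 µg/ml was 0.30 on the log2 scale, and limma on log2(TPM + 1) gave 0.12 (adjusted p = 0.400). B3gnt6, the core 3 synthase, had 0.15 and 0.12, 0.17 and 0.11, and 0.36 and 0.34 TPM, and was higher at 0.5 µg/ml by 1.47 ± 0.35 (adjusted p = 0.00386).

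B3gnt7, which acts on keratan sulfate chains, was the 1 member of the family that fell. It had 7.14 and 8.09 TPM in control, 5.12 and 5.54 with 0.1 µg/ml and 3.6 and 2.87 with 0.5 µg/ml, in 3 separate steps. The log2 fold change was -1.14 ± 0.12 at 0.5 µg/ml (adjusted p = 1.37e-05) and -0.48 ± 0.11 at 0.1 µg/ml (adjusted p = 0.00792), and the latter did not pass without replicate 1 of the 0.1 µg/ml group (-0.44, adjusted p = 0.0533). B3gnt4, B3gnt8 and B3gnt9 passed in no comparison, and all their libraries lay under 1 TPM.

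Galactosyltransferases extend GlcNAc into type 1 chains (B3galt) or type 2 chains (B4galt). Of 10 tested members, 6 were higher and 2 lower at 0.5 µg/ml, and 3 were higher and 1 lower at 0.1 µg/ml. Beside 67.5% and 34.6% of all genes, 80.0% and 40.0% of these members were called. Their summed TPM was 108 and 113 in control, 115 and 118 with 0.1 µg/ml and 111 and 112 with 0.5 µg/ml, so that the 0.5 µg/ml libraries lay within the control range. B4galt3 had the highest level, with 33.93 and 32.15 TPM in control, 32.48 and 34.11 with 0.1 µg/ml and 35.32 and 37.51 with 0.5 µg/ml. B4galt3 overlaps Ppox on the opposite strand (-0.36 at 0.5 µg/ml, adjusted p = 0.000558), so its counts are uncertain. Its rise of 0.29 ± 0.05 at 0.5 µg/ml (adjusted p = 0.000926) did not pass on log2(TPM + 1) with limma (0.14, adjusted p = 0.0766). Its rise between the doses, 0.20, did not pass without replicate 1 of the 0.1 µg/ml group (0.18, adjusted p = 0.0658) or without replicate 2 of the 0.5 µg/ml group (0.14, adjusted p = 0.121).

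B3galt5 and B4galt2 had the largest rises of the family. B3galt5, the type 1 chain enzyme of the digestive tract, had 0.17 and 0.24 TPM in control, 0.32 and 0.46 with 0.1 µg/ml and 2.14 and 1.00 with 0.5 µg/ml. The libraries at 0.5 µg/ml were uneven and both lay above all others, with a log2 fold change of 2.98 ± 0.39 (adjusted p = 8.65e-05). At 0.1 µg/ml the difference of 0.89 ± 0.44 did not pass (adjusted p = 0.149), but it passed without either library of the 0.5 µg/ml group (adjusted p = 0.0428 and 0.0386), which enter the shared estimate of the spread.

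B4galt2, an enzyme of type 2 chains, had 0.35 and 0.33 TPM in control, 0.29 and 0.24 with 0.1 µg/ml and 1.78 and 1.83 with 0.5 µg/ml. The 0.5 µg/ml libraries stood apart from the other 4. The log2 fold change was 2.59 ± 0.21 against control (adjusted p = 2.87e-06) and 2.75 ± 0.21 against 0.1 µg/ml (adjusted p = 3.01e-06), while 0.1 µg/ml differed from control by -0.16 ± 0.26 (adjusted p = 0.688). B4galt2 overlaps Slc6a9 on the opposite strand and Ccdc24 on the same strand, with log2 fold changes of 0.62 and 2.01 at 0.5 µg/ml, so its counts are uncertain. B3galt4, the GM1 ganglioside synthase, was higher at both doses, by 0.74 ± 0.11 and 1.02 ± 0.11 (adjusted p = 0.00083 and 2.7e-05), and B4galt1, the main type 2 chain enzyme, by 0.17 ± 0.06 and 0.40 ± 0.06 (adjusted p = 0.0454 and 0.000144).

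B4galt4 and B4galt5 fell. B4galt4, which acts on sulfated keratan sulfate chains, had 10.4 and 11.86 TPM in control, 8.24 and 8.12 with 0.1 µg/ml and 3.96 and 4.05 with 0.5 µg/ml, with log2 fold changes of -0.37 ± 0.08 (adjusted p = 0.0048) and -1.31 ± 0.08 (adjusted p = 4.52e-07). B4galt5, a lactosylceramide synthase, had 9.52 and 10.69, 11.37 and 10.87, and 6.37 and 5.26 TPM, and fell by 0.74 (SE 0.08, adjusted p = 2.41e-05) at 0.5 µg/ml, while 0.18 at 0.1 µg/ml did not pass (adjusted p = 0.0937). The other lactosylceramide synthase, B4galt6, was higher by 0.23 ± 0.04 and 0.14 ± 0.04 at the 2 doses (adjusted p = 0.00293 and 0.0164). B4galt7 and B3galt6, which build the linker of proteoglycans, passed in none of the 3 comparisons.

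GalNAc caps are added by the B4galnt family, whose expression was lower at 0.5 µg/ml for 3 of the 4 genes, and all 4 were lower at 0.5 than at 0.1 µg/ml. At 0.1 µg/ml against control 2 were higher and none lower. Of all genes, 33.1% were lower at 0.5 µg/ml, 29.1% were lower between the doses and 20.8% were higher at 0.1 µg/ml. B4galnt1, the GM2 and GD2 ganglioside synthase, was the most abundant member of all. It had 128.79 and 125.13 TPM in control, 131.14 and 130.16 with 0.1 µg/ml and 78.89 and 75.46 with 0.5 µg/ml. The 0.5 µg/ml libraries lay below the rest, with a log2 fold change of -0.65 ± 0.05 against control (adjusted p = 1.72e-06), and 0.1 µg/ml differed from control by 0.07 ± 0.05 (adjusted p = 0.295).

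B4galnt2, which makes the Sda antigen of gut mucins, had 61.95 and 70.34 TPM in control, 76.77 and 75.89 with 0.1 µg/ml and 44.32 and 46.4 with 0.5 µg/ml. It was higher than control at 0.1 µg/ml (0.25 ± 0.05, adjusted p = 0.00585) and lower at 0.5 µg/ml (-0.44 ± 0.05, adjusted p = 4.96e-05). B4galnt3, which makes the LacdiNAc unit, had 3.21 and 3.88, 3.34 and 3.02, and 1.46 and 1.59 TPM, and fell by 1.11 at 0.5 µg/ml (SE 0.11, adjusted p = 1.33e-05). The fourth, B4galnt4, also a LacdiNAc enzyme, differed by 0.05 ± 0.05 from control at 0.5 µg/ml (adjusted p = 0.481). It was higher than control at 0.1 µg/ml (0.20 ± 0.05, adjusted p = 0.0169). The summed level of the family was 211 and 217 TPM in control, 231 and 227 with 0.1 µg/ml and 140 in each library with 0.5 µg/ml.

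Fucosyltransferases divided into 2 higher, 2 lower and 3 that did not pass of 7 tested, at either dose against control. Beside 67.5% of all genes at 0.5 µg/ml and 34.6% at 0.1 µg/ml, 57.1% of the family were called at each dose. The 2 higher were Fut2 and Fut9, and Fut9 passed the low-count filter only through the 0.5 µg/ml libraries. Fut8, which adds the core fucose of N-glycans, held most of the family's level, with 53.52 and 58.23 TPM in control, 55.56 and 59.4 with 0.1 µg/ml and 43.54 and 43.19 with 0.5 µg/ml. Its log2 fold change was -0.28 ± 0.05 at 0.5 µg/ml (adjusted p = 0.000464) and 0.08 ± 0.05 at 0.1 µg/ml (adjusted p = 0.230). Fut2, the secretor enzyme that adds the alpha-1,2 fucose of H antigens in gut epithelium, had 0.2 and 0.23 TPM in control, 1.28 and 1.3 with 0.1 µg/ml and 2.55 and 2.65 with 0.5 µg/ml. The groups stood in 3 separate steps, and Fut2 rose by 2.58 ± 0.21 at 0.1 µg/ml (adjusted p = 1.43e-05) and 3.71 ± 0.20 at 0.5 µg/ml (adjusted p = 1.42e-07). Fut1, the other H enzyme, was lower at 0.1 µg/ml (-1.19 ± 0.31, adjusted p = 0.0156) and did not pass at 0.5 µg/ml (-0.48 ± 0.30, adjusted p = 0.184), at levels of 0.18 to 0.9 TPM. Fut11 stayed between 3.03 and 3.44 TPM and passed in no comparison. Fut10 had 0.07 and 0.1 TPM in control, 0.07 and 0.02 with 0.1 µg/ml and 0.18 and 0.16 with 0.5 µg/ml. It was above the low-count filter's limit in 1 control library, in no 0.1 µg/ml library and in 2 libraries with 0.5 µg/ml. It would not have passed without the latter, so these values are given with no test.

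Of the alpha-1,3 fucosyltransferases Fut4, Fut7 and Fut9, Fut4 fell, Fut9 had counts in doxycycline only and Fut7 was too low to test. Fut4 had 1.04 and 1.01 TPM in control, 0.56 and 0.66 with 0.1 µg/ml and 0.42 and 0.41 with 0.5 µg/ml, and was lower at both doses (-0.72 ± 0.16, adjusted p = 0.006, and -1.21 ± 0.17, adjusted p = 0.000119). Fut9 had 0 counts in both control libraries, 13 and 9 counts with 0.1 µg/ml and 46 and 45 counts with 0.5 µg/ml. Against a floor of 3 counts per library it was at least 3.01-fold higher at 0.1 µg/ml and at least 15.9-fold higher at 0.5 µg/ml, and its mean level stayed under 1 CPM. It passed the low-count filter only through the 0.5 µg/ml libraries, so these values are given with no test. For Fut4, the call at 0.1 µg/ml was lost without replicate 1 of that group (-0.62, adjusted p = 0.0545). Its difference between the doses, -0.49, was lost without replicate 2 of the 0.1 µg/ml group (-0.38, adjusted p = 0.150), without replicate 1 of the 0.5 µg/ml group (-0.53, adjusted p = 0.0763) or without replicate 2 of that group (-0.44, adjusted p = 0.141), and with DESeq2 (adjusted p = 0.127).

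Sialic acid in alpha-2,3 linkage is added by the St3gal family. Of 5 tested genes, 3 were lower and 1 higher at 0.5 µg/ml, and 4 were lower and none higher at 0.1 µg/ml. Beside 67.5% and 34.6% of all genes, 80.0% of the tested St3gal genes were called at each dose. The family's summed level was 79.7 and 81.9 TPM in control, 50.1 and 53.9 with 0.1 µg/ml and 49.8 and 43.8 with 0.5 µg/ml, so that both doses lay below control. Most of it was St3gal6, which acts on type 2 chains. St3gal6 had 71.47 and 72.43 TPM in control, 44.39 and 47.79 with 0.1 µg/ml and 39.1 and 31.7 with 0.5 µg/ml, with log2 fold changes of -0.50 ± 0.08 (adjusted p = 0.0013) and -0.83 ± 0.09 (adjusted p = 1.47e-05). The difference between the doses, -0.33 (adjusted p = 0.00848), did not pass without replicate 2 of the 0.5 µg/ml group (-0.18, adjusted p = 0.0643). St3gal6 overlaps Dcbld2 on the opposite strand, which was higher (0.57).

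St3gal4, which sialylates type 2 chains, had the largest fall of the family. It had 3.45 and 4.65 TPM in control, 2.32 and 2.45 with 0.1 µg/ml and 0.81 and 1.05 with 0.5 µg/ml, in 3 separate steps, with log2 fold changes of -0.88 ± 0.16 (adjusted p = 0.00207) and -2.29 ± 0.18 (adjusted p = 2.4e-06). The 250 bases before its RefSeq start (chr9:35116865-35117114, minus strand, GRCm38.p6) are shown for this fall, and none of the 4 motifs was found in them, which says only that these letters are not in this window.
St3gal4: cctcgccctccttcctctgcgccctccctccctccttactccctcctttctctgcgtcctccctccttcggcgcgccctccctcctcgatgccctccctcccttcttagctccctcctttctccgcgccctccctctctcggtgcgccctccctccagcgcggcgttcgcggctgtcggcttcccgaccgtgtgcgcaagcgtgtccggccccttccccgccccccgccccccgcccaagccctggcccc
St3gal3, which acts on type 1 and type 2 chains, changed direction with dose. It had 4.13 and 4.19 TPM in control, 3.14 and 3.29 with 0.1 µg/ml and 9.55 and 10.57 with 0.5 µg/ml. It was lower at 0.1 µg/ml (-0.44 ± 0.09, adjusted p = 0.00322) and higher at 0.5 µg/ml (1.20 ± 0.08, adjusted p = 6.07e-07), with no overlap between any of the groups.

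St3gal1 and St3gal2, the enzymes that sialylate core 1, were both present at low level. St3gal1 had 0.34 TPM in each control library, 0.08 and 0.16 with 0.1 µg/ml and 0.24 and 0.29 with 0.5 µg/ml. It was lower at 0.1 µg/ml (-1.41 ± 0.30, adjusted p = 0.00499) and did not pass at 0.5 µg/ml (-0.25 ± 0.27, adjusted p = 0.446). Its rise between the doses, 1.17 (adjusted p = 0.00799), did not pass without replicate 1 of the 0.1 µg/ml group (0.73, adjusted p = 0.0683) or without replicate 2 of the 0.5 µg/ml group (1.09, adjusted p = 0.0548). St3gal2 had 0.25 and 0.22, 0.14 and 0.16, and 0.12 and 0.1 TPM, and was lower at 0.5 µg/ml (-1.08 ± 0.30, adjusted p = 0.00917).

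The alpha-2,6-sialyltransferases exchanged their leading genes. Of 6 identifiers that passed the low-count filter, St6galnac3 did so only through the 0.5 µg/ml libraries. Of the other 5, 3 were higher and 2 lower at 0.5 µg/ml, beside 67.5% of all genes called. At 0.1 µg/ml 2 of them were higher and 2 lower, beside 34.6% of all genes. The summed level was 34.7 and 36.6 TPM in control, 21.8 and 23.3 with 0.1 µg/ml and 32.2 and 35.5 with 0.5 µg/ml, so that the sums at 0.5 µg/ml and control overlapped while their makeup differed. St6galnac2 made up 98.9 and 98.6% of the sum in control, 84.5 and 86.2% with 0.1 µg/ml and 17.6 and 18.1% with 0.5 µg/ml. St6galnac4 and St6galnac6 together made up 0.922 and 1.12%, 15.2 and 13.4%, and 81.7 and 80.6%. These shares are a description of the deposited TPM and carry no test.

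**Figure D3:**
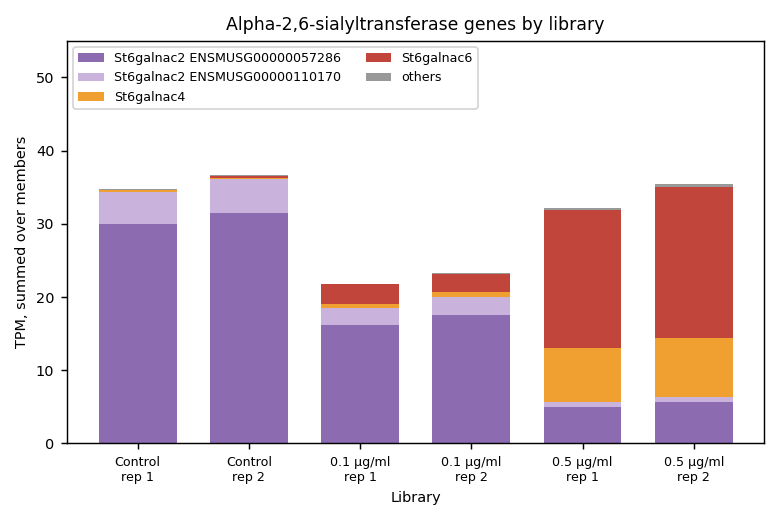
Stacked bars give the deposited TPM of the alpha-2,6-sialyltransferase genes in each of the 6 libraries, with the 2 identifiers of St6galnac2 in purple shades. St6galnac2 fills nearly the whole bar in control, and St6galnac6 (18.84 and 20.57 TPM) and St6galnac4 (7.42 and 8.03 TPM) fill most of it at 0.5 µg/ml.

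St6galnac2 adds sialic acid to the first GalNAc of an O-glycan. Its main identifier, ENSMUSG00000057286, had 29.95 and 31.42 TPM in control, 16.2 and 17.55 with 0.1 µg/ml and 4.93 and 5.7 with 0.5 µg/ml. The groups formed 3 separate steps, with log2 fold changes of -0.89 ± 0.05 (adjusted p = 8.28e-07) and -2.49 ± 0.05 (adjusted p = 3.17e-10) against control. The second identifier, ENSMUSG00000110170, had 4.37 and 4.69, 2.25 and 2.52, and 0.72 and 0.71 TPM, with log2 fold changes of -0.89 ± 0.13 and -2.56 ± 0.15 (adjusted p = 0.00048 and 2.48e-07). Both lie on one strand and overlap, so how RSEM divided reads between them is uncertain, and they are not independent of each other. The main identifier also overlaps 1810032O08Rik on the opposite strand. That gene had means of 18.1, 19.8 and 21.9 CPM in control, 0.1 and 0.5 µg/ml (log2 fold change 0.27 at 0.5 µg/ml), which adds to the uncertainty.

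St6galnac6, which makes alpha-series gangliosides and the disialyl Lewis a antigen, had 0.02 and 0.2 TPM in control, 2.71 and 2.44 with 0.1 µg/ml and 18.84 and 20.57 with 0.5 µg/ml. The control values rested on 2 and 8 counts, beside 1127 and 1481 counts at 0.5 µg/ml. The log2 fold change was 5.07 ± 0.28 at 0.1 µg/ml (adjusted p = 8.69e-07) and 8.04 ± 0.21 at 0.5 µg/ml (adjusted p = 1.07e-09), or 7.48 by the ratio of mean TPM. St6galnac4, which places a second sialic acid on sialylated core 1, had 0.3 and 0.21 TPM in control, 0.6 and 0.68 with 0.1 µg/ml and 7.42 and 8.03 with 0.5 µg/ml. It was higher by 1.67 ± 0.19 at 0.1 µg/ml (adjusted p = 0.000143) and 5.16 ± 0.15 at 0.5 µg/ml (adjusted p = 2.21e-09). For each of the pair no library of a higher dose overlapped one of a lower dose, and the step from 0.1 to 0.5 µg/ml was 2.97 ± 0.12 for St6galnac6 and 3.49 ± 0.13 for St6galnac4 (adjusted p = 5.43e-08 and 2.54e-08).

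St6galnac4 and St6galnac6 lie next to each other on chromosome 2 on the same strand, and in RefSeq the gap between them is 12 bases. The 250 bases before the first gene of the pair, St6galnac4 (chr2:32586828-32587077, plus strand, GRCm38.p6), are shown since both genes rose, and they held 1 CACCC motif, here read on the other strand, and none of the other 3.
St6galnac4: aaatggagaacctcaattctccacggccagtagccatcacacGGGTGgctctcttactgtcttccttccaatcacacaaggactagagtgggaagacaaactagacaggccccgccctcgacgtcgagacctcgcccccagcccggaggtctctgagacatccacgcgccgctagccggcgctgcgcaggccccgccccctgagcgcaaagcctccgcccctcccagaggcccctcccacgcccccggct
The remaining tested members of the family were low. St6gal1, which caps N-glycans, had 0.05 and 0.12 TPM in control, 0.08 in each library with 0.1 µg/ml and 0.22 and 0.18 with 0.5 µg/ml, and was higher at 0.5 µg/ml (1.70 ± 0.36, adjusted p = 0.00204). St6galnac3, which like St6galnac4 acts on sialylated core 1, had 0 counts in both control libraries, 1 count in each with 0.1 µg/ml and 10 and 12 counts with 0.5 µg/ml, at least 3.81-fold higher at 0.5 µg/ml than control set to a floor of 3 counts per library, with no test for the reason above.

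The alpha-2,8-sialyltransferases extend sialic acid with a further sialic acid, and of 6 members 2 were tested. St8sia1, the GD3 ganglioside synthase, had 0.04 and 0.01 TPM in control, from 4 and 2 counts, 0.6 and 0.47 with 0.1 µg/ml and 2.97 and 2.94 with 0.5 µg/ml. It was higher by 5.26 ± 0.27 at 0.1 µg/ml (adjusted p = 4.91e-07) and 7.90 ± 0.21 at 0.5 µg/ml (adjusted p = 1.06e-09), or by 6.89 by the ratio of mean TPM, with no overlap between groups. The 250 bases before its RefSeq start (chr6:142964453-142964702, minus strand, GRCm38.p6) are shown for this rise and held 2 CACCC motifs.
St8sia1: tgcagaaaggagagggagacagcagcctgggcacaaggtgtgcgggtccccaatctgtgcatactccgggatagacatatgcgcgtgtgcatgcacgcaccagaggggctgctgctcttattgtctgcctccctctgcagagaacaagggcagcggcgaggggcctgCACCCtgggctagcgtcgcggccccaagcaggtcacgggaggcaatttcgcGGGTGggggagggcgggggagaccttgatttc
St8sia3 went the other way, with 30 and 31 counts in control, 18 and 14 with 0.1 µg/ml and 2 and 0 with 0.5 µg/ml. The level in control was 29.4 times that at 0.5 µg/ml, with a 95% exact counting interval of 7.79 to 248 (adjusted p = 0.000108), and at 0.1 µg/ml it fell by 1.21 on the log2 scale (SE 0.38, adjusted p = 0.0334).

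**Figure D4:**
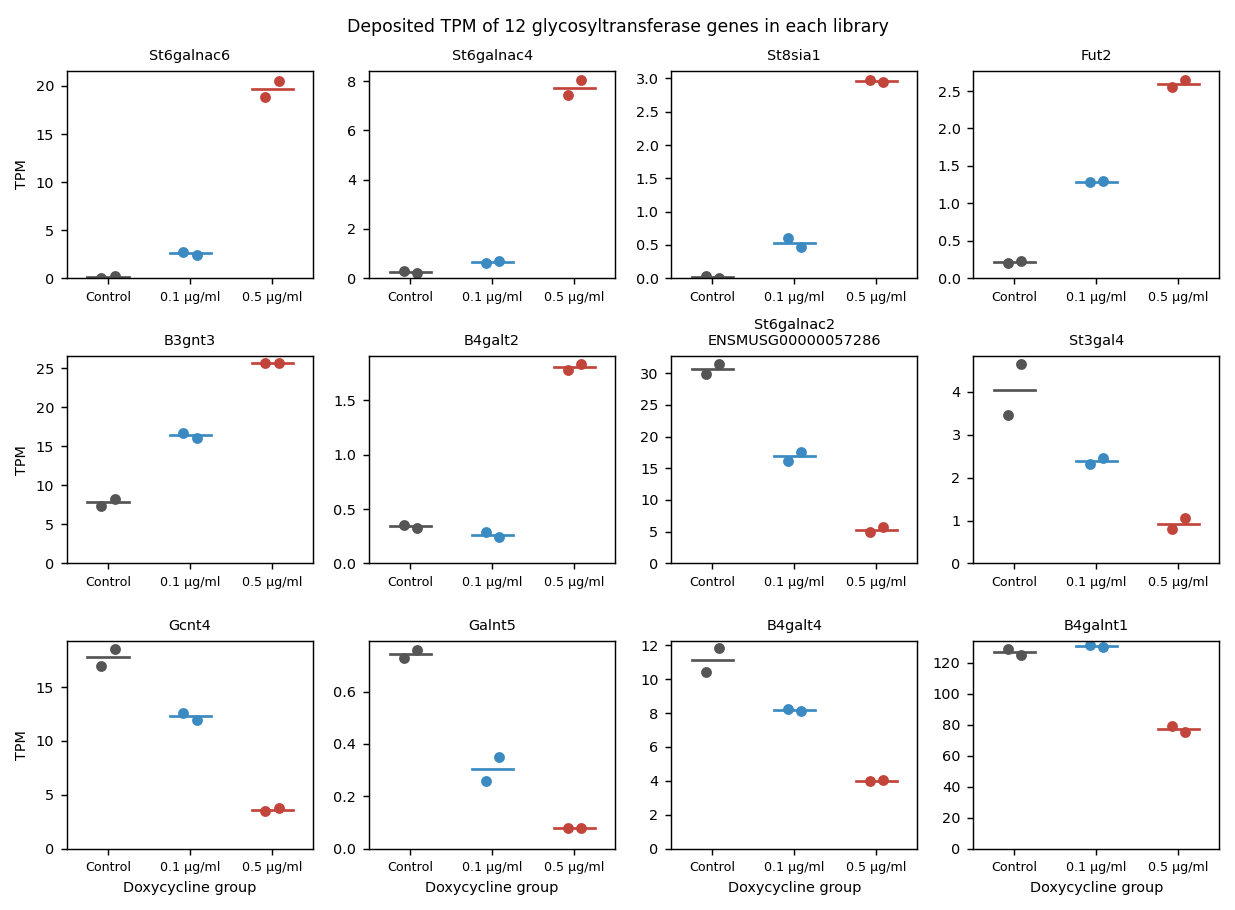
Each panel gives the deposited TPM of 1 gene on a vertical axis starting at 0, with a point per library and a line at the mean of the 2 libraries of a group. The first 6 genes are higher at 0.5 µg/ml than in control and the last 6 lower, and B4galt2 and B4galnt1 did not pass the adjusted test at 0.1 µg/ml against control.

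The proteins and sugars on which these enzymes act were described from lists of other genes. Of all genes tested, 34.4% were higher and 33.1% lower at 0.5 µg/ml against control, and these shares stand beside each list. Of 10 mucin genes found, 7 were tested, 3 higher and 3 lower at 0.5 µg/ml (median log2 fold change -0.39). Muc2, the secreted gel mucin of goblet cells, fell by 2.83 (SE 0.11, adjusted p = 1.24e-08), from 19.15 and 21.29 TPM to 2.87 and 2.44 TPM, and Muc13, a membrane mucin, by 1.35 (SE 0.05, adjusted p = 1.09e-08). Muc5ac, the mucin of gastric surface cells, held 0 and 2 counts in the control libraries and reached 2.17 and 2.13 TPM at the lower and 10.42 and 8.73 TPM at the higher dose (adjusted p = 2.95e-08 and 3.38e-10). The secreted mucin Muc5b was higher as well, from 0.0203 and 0.0399 CPM to 4.56 and 2.90 CPM at 0.5 µg/ml (adjusted p = 1.38e-05).

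Of 18 tested genes of nucleotide sugar synthesis, 8 were higher and 8 lower at 0.5 µg/ml (median 0.0), beside 67.5% of all genes called. Pgm3, of the pathway to UDP-GlcNAc, had the largest rise (1.15 ± 0.05, adjusted p = 1.72e-08), and Gmds, the first enzyme on the way to GDP-fucose, the largest fall (-1.36 ± 0.06, adjusted p = 5.71e-08), from 138.63 and 134.66 TPM in control to 94.12 and 100.27 with 0.1 µg/ml and 52.52 and 46.98 with 0.5 µg/ml. Among 7 Golgi carriers, 4 were higher and 2 lower (median 0.21), with the UDP-galactose carrier Slc35a2 at 0.74 ± 0.05 (adjusted p = 7.38e-07) and the UDP-GlcNAc carrier Slc35a3 at -0.96 ± 0.05 (adjusted p = 6.94e-08). Of 3 tested sulfotransferases, 2 were higher and 1 lower (median 1.21). Gal3st2, which sulfates galactose, rose by 1.72 ± 0.44 (adjusted p = 0.00626), and Gal3st1, the sulfatide synthase, fell by 0.42 (SE 0.07, adjusted p = 0.000657).

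Other terminal and N-glycan branching transferases divided into 4 higher, 6 lower and 1 that did not pass of 11 tested (median -0.69). This was 90.9% called, beside 67.5% of all genes. Abo, the blood group A and B transferase that acts on H chains, had 0.01 and 0.04 TPM in control, 1.93 and 2.15 with 0.1 µg/ml and 10.16 and 10.8 with 0.5 µg/ml. Its log2 fold change was 6.06 ± 0.29 and then 8.49 ± 0.23 (adjusted p = 3.09e-07 and 1.15e-09), with the groups in 3 separate steps. A4gnt, the enzyme of gastric gland mucins, fell by 3.11 at 0.5 µg/ml (SE 0.53, adjusted p = 0.000525) from a level under 1 CPM. Of 11 tested glycosidases that trim glycans, 1 was higher and 7 lower (median -0.48), or 72.7% called beside 67.5% of all genes. The higher one was the lysosomal sialidase Neu1 (0.39 ± 0.05, adjusted p = 4.74e-05). Hexa, a subunit of lysosomal hexosaminidase, had the largest fall (-1.56 ± 0.05, adjusted p = 4.4e-09).

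At 0.1 µg/ml against control, the same lists gave 3 higher and 3 lower of 7 mucins, 4 and 2 of 18 genes of nucleotide sugar synthesis, 3 and 0 of 7 carriers, 2 and 0 of 3 sulfotransferases, 3 and 3 of 11 other transferases, and 3 and 3 of 11 glycosidases. Of all genes tested, 20.8% were higher and 13.8% lower. Between the doses, at 0.5 against 0.1 µg/ml, the counts were 2 and 3, 4 and 8, 2 and 2, 1 and 1, 2 and 5, and 1 and 8 in the same order. Beside these, 29.8% of all genes were higher and 29.1% lower between the doses. These comparisons share libraries with those against control.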

How the data were processed

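Libraries were strand-specific, made from poly-A RNA with an MGI kit and read in pairs, per the labels' protocols. Per the submitters' processing notes, the tools listed include STAR (2.7.3a) and RSEM (1.3.3), and the builds GRCm39 and mm10 are both listed, so no coordinates of the tables are given. The deposited values are RSEM expected counts, which are estimates and can hold fractions, and a matching table of TPM, both from the authors. Symbols came from the GENCODE M21 gene table, which matched 52083 identifiers (94.0%), and unmatched ones held 0.18 to 0.26% of counts. Promoter windows came from RefSeq (GRCm38.p6) and were matched by symbol.

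Expected counts were rounded to whole numbers. The 16975 genes kept by edgeR's filterByExpr, with 99.96% of counts, entered one edgeR 4.0.16 quasi-likelihood fit (R 4.3.3, TMM factors 0.964 to 1.04) with a mean per group and 3 residual degrees of freedom. Tests were two-sided with Benjamini-Hochberg adjustment at 0.05, and SEs came from the F statistic. An exact test of 2 against 2 libraries cannot go below p = 0.333. CPM uses the TMM-scaled library sizes, and errors after ± are SEs of log2 fold changes. Counting intervals and floors of 3 counts cover counting error only. Replicates of a group differed by more than sampling noise (chi-square per degree of freedom 7.57 to 8.6). Alternatives used limma 3.58.1 and DESeq2 1.42.0, other scalings and filters, and each library left out.

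Members and gene lists were chosen with earlier results of these data known. Genes given with all values were, per role, the most abundant member, the 2 largest rises and 2 largest falls at 0.5 µg/ml among those reaching 1 CPM, and the 3 largest rises and falls of the other comparisons. Each other list is shown by its largest rise and fall, and further genes were picked after their values were seen.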

Additional observations from a re-analysis of the deposited data

How the results depend on the processing

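For 32 of the members, 96 log2 fold changes were followed over 13 alternatives. None changed sign where the main fit or the alternative made a call. Of 1224 values, 1159 kept their side of the threshold, 59 kept their direction and lost the call, and 6 gained one. A change of sign where neither fit made a call was not counted. Calls lost without 1 library are given beside their results, and limma on TPM with every gene above 0 lost 15. Same-numbered libraries showed little shared deviation, with correlations of -0.039 to 0.077. These values cannot tell whether such libraries came from one mouse or culture. With the replicate block, members numbered 23 higher and 24 lower at 0.5 µg/ml, 14 and 15 at 0.1 µg/ml, and 21 and 23 between doses, beside 5707 and 5455, 3217 and 2048, and 4869 and 4738 of all genes. The calls of Galnt6 and Fut4 between doses were lost (adjusted p = 0.0615 and 0.0507).

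The limma fits to TPM tested fewer genes (13474, with 44 members) or, with every gene above 0, more (28962, with 72 members). On log2(TPM + 1) and log2(TPM + 0.1) they called 15 members higher at 0.5 µg/ml in each, 8 higher and 9 lower at 0.1 µg/ml in each, and 10 higher between doses in each. With every gene above 0 the counts were 6 higher and 8 lower at 0.1 µg/ml and 12 higher between doses. Over all genes, log2(TPM + 1) and log2(TPM + 0.1) gave 3849 and 3850 higher at 0.5 µg/ml, 1905 and 2001 higher and 1534 and 1476 lower at 0.1 µg/ml, and 3171 and 3144 higher between doses, and with every gene above 0, 1484 higher and 1036 lower at 0.1 µg/ml.

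Leaving out 1 library at a time, members higher ranged from 21 to 24 and lower from 22 to 24 at 0.5 µg/ml, from 10 to 14 and 10 to 16 at 0.1 µg/ml, and from 17 to 24 and 21 to 25 between doses. Over all genes, the ranges were 5047 to 5937 and 5033 to 5870, 2352 to 2963 and 1448 to 2291, and 4143 to 5413 and 3976 to 5105. The lowest counts at 0.1 µg/ml (2352, 1448 and 10 lower members) came without replicate 1 of that group. Upper quartile scaling gave 5121 genes higher and 6592 lower at 0.5 µg/ml, in place of 5839 and 5626, and 3037 and 2986 at 0.1 µg/ml, in place of 3531 and 2350. The 2 libraries per group and few counts limit the genes under 1 CPM.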

Other observations

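A4galt, the enzyme that makes the globoside Gb3 and the P1 antigen, had 0.03 and 0.07 TPM in control, 2.27 and 2.43 with 0.1 µg/ml and 16.56 and 16.61 with 0.5 µg/ml. Its log2 fold change was 5.52 ± 0.24 at 0.1 µg/ml and 8.36 ± 0.19 at 0.5 µg/ml (edgeR adjusted p = 1.64e-07 and 3.55e-10). Ggta1, which adds the alpha-galactose cap, fell at 0.5 µg/ml by 2.01 (SE 0.30, adjusted p = 0.000202), from 0.932 and 1.02 CPM to 0.206 and 0.269 CPM. The N-glycan branching genes Mgat5 and Mgat4b were lower at 0.5 µg/ml by -1.19 ± 0.04 and -1.16 ± 0.05 on the log2 scale (adjusted p = 6.63e-09 and 1.3e-08), and by -0.27 and -0.32 at 0.1 µg/ml (adjusted p = 0.000672 and 0.000406).

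Around the adjacent pair St6galnac4 and St6galnac6, the next gene on the far side of St6galnac6, Ak1, went from 0.29 and 0.31 TPM in control to 0.23 and 0.14 with 0.1 µg/ml and 4.36 and 2.16 with 0.5 µg/ml (log2 fold change 2.76 ± 0.25 at 0.5 µg/ml, adjusted p = 6.73e-06, and -0.81 at 0.1 µg/ml, adjusted p = 0.0942). The gene after it, Eng, went from 0.03 and 0.02 to 0.35 in each and 2.8 and 2.98 TPM (3.58 ± 0.33 and 6.75 ± 0.24, adjusted p = 2.86e-05 and 7.66e-09). Beyond Eng, Fpgs differed by -0.03 ± 0.07 at 0.5 µg/ml (adjusted p = 0.709), and Cdk9 by 0.29 ± 0.05 (adjusted p = 0.000487). On the side of St6galnac4, Pip5kl1 was too low to test, Dpm2 differed by 0.19 ± 0.05 (adjusted p = 0.00956) and Fam102a by 0.68 ± 0.06 (adjusted p = 7.69e-06). These neighbours were looked at after the values of the pair were seen, and no reason for the values was tested.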
